A study of Mus musculus with 6 samples.

Results

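Nova1 and Nova2 are the 2 paralogous genes of the Nova family of splicing regulators, and they were followed through 6 RNA sequencing libraries of mouse lumbar dorsal root ganglia at E12.5 of embryonic life. They are 2 of the 24264 genes in the deposited table and were taken by name. They were selected on their own RPKM values in these 6 libraries, that is, on their difference between the groups, so their values are given as a description, with no test. The 3 miR-CKO libraries came from Wnt1-Cre embryos homozygous (flox/flox) for a floxed miR-183-96-182 cluster, so that both alleles meet a Cre driven by the Wnt1 promoter. Among the 3 controls, libraries 1 and 3 were titled with the Cre and no floxed allele, and library 2 was titled wild type. All embryos shared a mixed C57/Bl6 x 129/SvEv background. Wnt1-Cre acts in the dorsal neural tube and in the neural crest, which forms both the sensory neurons and the glia of these ganglia, so the deletion is not limited to neurons. The ganglia hold cells of other origins too. The labels say neither whether a library came from 1 embryo or several nor whether the libraries are separate litters.

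NOVA proteins are neuronal RNA-binding proteins with KH domains. They recognise clusters of YCAY (a pyrimidine, CA, a pyrimidine) in precursor messages, and the place of such a cluster relative to an alternative exon sets whether the exon is included or skipped. In mouse brain they shape the splicing of many synaptic and axon guidance messages, and NOVA1 and NOVA2 prevail in different brain regions. The microRNAs miR-183, miR-96 and miR-182 are transcribed together and are abundant in sensory cells of the ear, the eye and the dorsal root ganglia. Like other microRNAs they lower the messages that pair with their seed, bases 2 to 8 from the 5′ end.

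The 3 mature sequences of the deleted cluster are shown because the matches to them separate the paralogs. They are from RefSeq on GRCm38.p6, written 5′ to 3′ with the seed in capitals, and all lie on the minus strand of chromosome 6, miR-96 at chr6:30169506-30169528, miR-182 at chr6:30165962-30165986 and miR-183 at chr6:30169711-30169732.
mmu-miR-96-5p: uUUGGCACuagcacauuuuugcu
mmu-miR-182-5p: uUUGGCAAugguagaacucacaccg
mmu-miR-183-5p: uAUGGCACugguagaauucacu
No seed is shared in full. The seeds of miR-96 and miR-182 are UUGGCAC and UUGGCAA, and the seed of miR-183 is AUGGCAC.

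The 3′ UTR of Nova2 held 5 matches to these seeds, and that of Nova1 held 2. Matches were sought on the message strand of GENCODE M21 transcripts (mm10), as an 8mer (the complement of the whole seed followed by A), as a 7mer-m8 (the complement of the seed alone), or as a 7mer-A1 (the complement of bases 2 to 7 followed by A). The 8mers are GTGCCAAA for miR-96, TTGCCAAA for miR-182 and GTGCCATA for miR-183. Bases 2 to 7 are the same in miR-96 and miR-182, so each miR-96 8mer also holds the 7mer-A1 of miR-182. Such a nested match was not counted again. A match is a stretch of letters and was not measured as a bound site. Nova2 lies on the plus strand at chr7:18925888-18965319, and its transcript has a 3′ UTR of 6701 bases. The 5 windows of its 3′ UTR follow from the stop codon onward, with the match in capitals, and they start at chr7:18960903, 18961858, 18962264, 18965119 and 18965250.
Nova2 miR-96 8mer, first: cagatggagattttaGTGCCAAAacaattc
Nova2 miR-96 8mer, second: ctttaaaagcaaaaaGTGCCAAActtcctc
Nova2 miR-96 8mer, next: aagaggggttcgaaaGTGCCAAAtttcacc
Nova2 miR-182 7mer-m8: tctgagccaccaaccTTGCCAActgtagaa
Nova2 miR-96 8mer, last: aaggcactgttctaaGTGCCAAAgttagaa
The same 8 letters thus stood 4 times in the Nova2 3′ UTR. The 3 upstream copies began 2300, 3255 and 3661 bases into the UTR, and the last lay 47 bases before its end. A/T made up 50.0% to 63.3% of the bases flanking the matches.

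Nova1 lies on the minus strand at chr12:46694517-46818929, and its longest annotated protein-coding transcript has a 3′ UTR of 5452 bases. It held only the shorter 7mer-m8 form, in windows that start, on the plus strand, at chr12:46699100 and 46698682.
Nova1 miR-96 7mer-m8, first: taaacaaaagtgaaaGTGCCAAcacattat
Nova1 miR-96 7mer-m8, second: ctgtacctctcctgaGTGCCAActgtccag
Both are the miR-96 complement without the closing A of the 8mer, at 855 and 1273 bases into the UTR. No match to miR-182 or miR-183 was found there. The annotation also holds Nova1 transcripts with 3′ UTRs of 194 and 280 bases, and these held 0 matches. Both annotated protein-coding transcripts of Nova2 held the same 5. Outside the UTRs the paralogs are alike in sequence, with 70.1% of 1393 aligned coding bases identical.

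**Figure D1:**
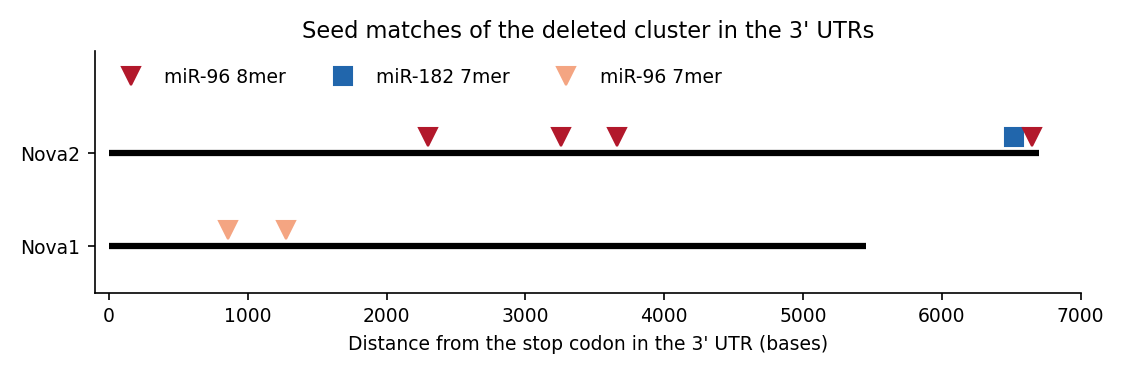
Seed matches of miR-96 and miR-182 along the 3′ UTRs of Nova2 (6701 bases) and Nova1 (5452 bases), with the distance from the stop codon in bases on the horizontal axis. The 4 miR-96 8mers of Nova2 spread from 2300 bases to the end of the UTR, while the 2 miR-96 7mers of Nova1 lie at 855 and 1273 bases.

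Among the 12038 genes tested that have an annotated 3′ UTR, 2.97% held a miR-96 8mer at all. The 4 copies of Nova2 were matched by 1 other gene, Sh3pxd2b, so that 2 genes (0.0166%) held as many. The long UTR of Nova2 is part of this description, since only 187 genes (1.55%) had one as long and the median gene had 1097 bases. Per kilobase of UTR, Nova2 held 0.746 matches of any kind and Nova1 held 0.367, beside 0.326 over all of these genes. At least 2 matches of any kind, as in Nova1, were found in 1422 genes.

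The 6 libraries were of similar depth, estimated at 22.7, 22.4 and 21.1 M reads (M, mega) for miR-CKO and 21.9, 24.5 and 20.4 M reads for control. Values are RPKM, reads per kilobase of transcript and per M mapped reads. The deleted microRNAs were listed at 0 in all 6 libraries, and since mature microRNAs carry no poly(A) tail, these libraries of polyadenylated RNA do not check the labels by them. MiR-CKO library 1 stood apart in sex: its Xist level was 96.0 RPKM, against at most 0.0890 RPKM in the other 5, and its Y-linked genes were at most 0.0416 RPKM, against at least 5.74 RPKM in the others. The markers of the tissue were present. The sensory neuron list of 10 genes summed to 586, 458 and 375 RPKM in miR-CKO and 536, 425 and 540 RPKM in control, and the glial list of 8 genes to 886 to 985 RPKM in miR-CKO and 832 to 1103 RPKM in control.

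Nova2 was higher in the miR-CKO ganglia in every library. Its level was 22.4, 15.2 and 18.1 RPKM in miR-CKO libraries 1 to 3, against 4.73, 5.06 and 4.79 RPKM in control libraries 1 to 3. The lowest miR-CKO library lay well above the highest control. The groups did not overlap, as in 4.63% of the genes tested in this direction. The mean was 18.6 ± 3.65 RPKM in miR-CKO and 4.86 ± 0.175 RPKM in control (SD, n = 3 each), a 3.82-fold ratio of means and a difference of 1.72 in log2(RPKM + 1), a scale on which changes of low genes come out smaller. This was the 3rd highest difference among the 13118 genes tested, those with at least 1 RPKM in at least 3 libraries. Without miR-CKO library 1, the one with Xist, the log2 difference was 1.58.

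In read terms, the Nova2 RPKM values stand for 4094, 2733 and 3054 reads in miR-CKO and 833, 997 and 785 reads in control. The coefficient of variation was 19.7% among the miR-CKO libraries, where counting error alone gives 1.74%, and 3.60% among the controls, where it gives 3.39%. With 3 libraries a group, a difference in spread was not tested. The 95% counting interval was 14.6 to 15.8 RPKM in the lowest miR-CKO library and 4.75 to 5.39 RPKM in the highest control. Such intervals cover counting error only.

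Nova1 was lower than Nova2 in all 6 libraries, though nearly level with it in control library 3, and its groups overlapped. In that library the 95% counting intervals overlapped, at 4.30 to 5.03 RPKM for Nova1 and 4.46 to 5.14 RPKM for Nova2. Its level was 3.20, 2.46 and 5.46 RPKM in miR-CKO libraries 1 to 3, against 1.95, 2.28 and 4.65 RPKM in control libraries 1 to 3. Library 3 was the highest of its group in both, and control library 3 exceeded miR-CKO libraries 1 and 2. The mean was 3.71 ± 1.56 RPKM in miR-CKO and 2.96 ± 1.48 RPKM in control (SD, n = 3 each), which is a 1.25-fold ratio of means, a log2 difference of 0.26 and rank 492 of 13118. The difference of the means is smaller than the SD of either group. Without miR-CKO library 3 the log2 difference was 0.01, and without control library 3 it was 0.55.

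The libraries of both groups were spread widely in Nova1. Its coefficient of variation was 42.1% in miR-CKO and 49.9% in control, where counting error alone gives 4.28% and 4.80%, on 490, 372 and 774 reads in miR-CKO and 287, 376 and 639 reads in control. Markers of the neighbouring spinal cord, a list of 8 transcription factors, summed to 4.72, 1.65 and 12.8 RPKM in miR-CKO libraries 1 to 3 and to 2.03, 3.60 and 3.83 RPKM in the controls. Library 3 was the highest of its group by that list too, although Mnx1, the motor neuron factor, was listed at 0 in all 6 libraries and 1 of the 8 genes passed the filter on low values. The part of spinal cord cells in the Nova1 values was not tested.

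**Figure D2:**
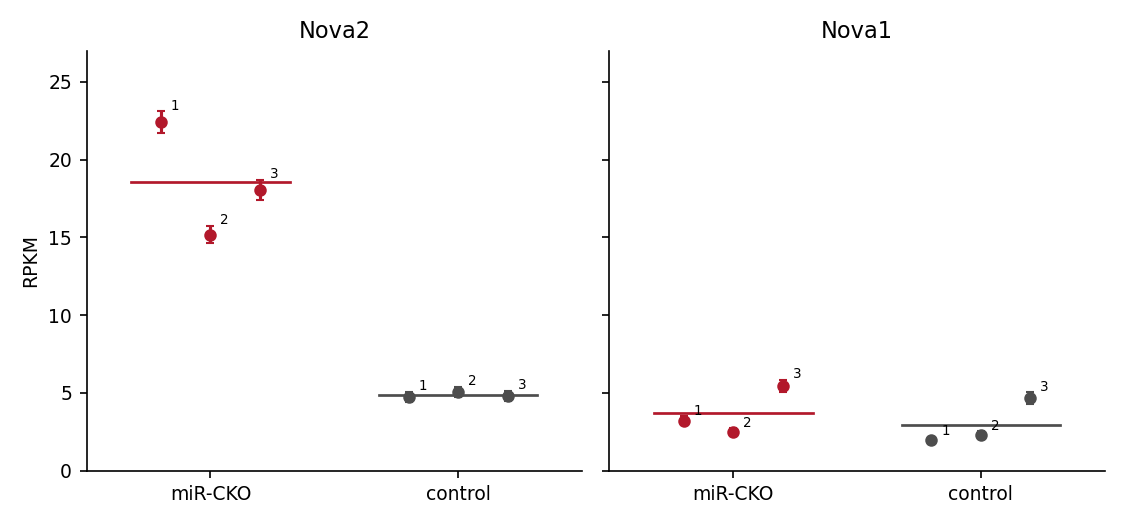
Level in RPKM of Nova2 and of Nova1 in each library, with miR-CKO left of control, the replicate number beside each point, 95% counting intervals as bars and the group mean as a line. Nova2 lies between 15.2 and 22.4 RPKM in miR-CKO and between 4.73 and 5.06 RPKM in control, while the Nova1 groups overlap.

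The balance of the paralogs, set per length within each library, lay further towards Nova2 in the miR-CKO ganglia. Nova2 exceeded Nova1 7.0-fold, 6.2-fold and 3.3-fold in miR-CKO libraries 1 to 3, against 2.4-fold, 2.2-fold and 1.0-fold in control libraries 1 to 3. The groups did not overlap, but miR-CKO library 3 came close to control library 1. The mean log2 ratio was 2.39 ± 0.58 in miR-CKO and 0.83 ± 0.68 in control (SD, n = 3 each), a difference of 1.56. The ratio inherits the high Nova1 values of library 3 in both groups: without miR-CKO library 3 the difference was 1.89, and without control library 3 it was 1.17.

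Taken as 1 pool of Nova message, the summed level was 22.3 ± 4.14 RPKM in miR-CKO and 7.82 ± 1.45 RPKM in control (SD, n = 3 each), a 2.85-fold ratio. The sums ranged over 17.6 to 25.6 RPKM in miR-CKO and 6.68 to 9.45 RPKM in control, with no overlap. Nova2 made up 87.5%, 86.0% and 76.8% of the sum in miR-CKO libraries 1 to 3 and 70.9%, 69.0% and 50.7% in control libraries 1 to 3. The paralogs were thus nearly level in control library 3 alone.

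**Figure D3:**
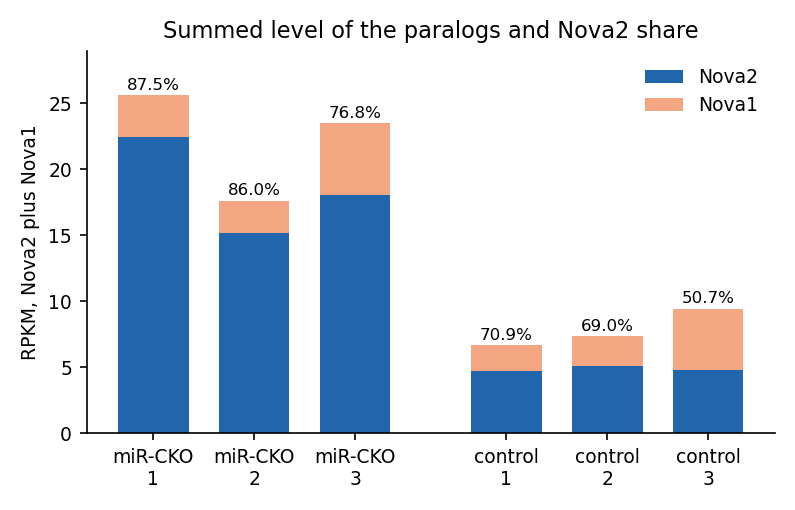
Stacked level in RPKM of Nova2 (lower part of each bar) and Nova1 (upper part) in each library, with the share of Nova2 in the sum above each bar. The 3 miR-CKO bars reach 17.6 to 25.6 RPKM and the 3 control bars 6.68 to 9.45 RPKM, and the segment that differs between the groups is that of Nova2.

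Both genes are neuronal, and in whole ganglia a larger share of neurons and more message per neuron cannot be told apart. A list of 11 pan-neuronal genes (cytoskeletal and vesicle genes such as Tubb3, Stmn2 and Snap25) summed to 5137, 4364 and 3449 RPKM in miR-CKO and 4474, 3554 and 4445 RPKM in control. The groups overlapped, and the mean log2 level differed by 0.08 (exact two-sided permutation test, p = 0.7, with 0.1 the smallest p this design allows). Taken relative to that list within each library, Nova2 stood at -3.64 ± 0.25 log2 units in miR-CKO and -5.29 ± 0.26 in control, a difference of 1.65. Nova1 stood at -5.73 ± 0.66 in miR-CKO and -5.91 ± 0.46 in control, a difference of 0.19.

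Markers of other tissues differed between the libraries of a group. Muscle markers summed to 30.6, 34.1 and 41.9 RPKM in miR-CKO and 31.8, 172 and 132 RPKM in control, and mesenchymal markers to 195 to 290 RPKM in miR-CKO and 222 to 415 RPKM in control. Endothelial markers summed to 79.6 to 114 RPKM in miR-CKO and 79.7 to 93.4 RPKM in control, red cell markers to 2979 to 5760 RPKM in miR-CKO and 1528 to 8719 RPKM in control, and sympathetic markers to 10.1 to 32.2 RPKM in miR-CKO and 9.45 to 38.1 RPKM in control. All 7 muscle genes tested had a log2 difference below 0 (median -1.64), and so had all 8 mesenchymal genes (median -0.39). Over all genes tested, 40.4% were above 0. In limma 0 were called in either list, where 0.061% of all genes were. At an unadjusted p under 0.05, 1 muscle gene was lower, where 2.31% of all genes were. Exact two-sided permutation tests on the mean log2 levels of the 9 lists gave raw p of 0.3 or more and Benjamini-Hochberg adjusted p of 1.0, but with 0.1 the smallest p possible no list could have passed. The part of these tissues in the Nova values was not tested. Control library 1 had as little muscle message as the miR-CKO libraries. It held 4.73 RPKM of Nova2, beside 5.06 and 4.79 RPKM in control libraries 2 and 3. Its Nova1 level was 1.95 RPKM, beside 2.28 and 4.65 RPKM in control libraries 2 and 3. From 1 such library no relation can be read.

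The other splicing regulators of neurons that were tested differed less between the groups than Nova2 did. Of 25 such genes listed beside the members, 24 were tested and Ptbp3 was not in the table. In limma with Benjamini-Hochberg adjustment over all 13118 genes at a threshold of 0.05, 0 of the 24 were called in either direction, where 0.061% of all genes were called, 0.0534% higher and 0.00762% lower. At an unadjusted p under 0.05, 2 were higher and 0 lower, where 2.85% of all genes were higher and 2.31% lower. With 24 genes, such counts say little about the list. Their median log2 difference was 0.04, beside -0.02 over all genes tested, with 14 above 0 and 10 below. The highest of the 24 reached 0.74, so none came near the 1.72 of Nova2, while 3 exceeded the 0.26 of Nova1. Those 3 were Celf6, Rbfox1 and Celf5.

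Celf6, a member of the CELF family of RNA-binding proteins that is enriched in the nervous system, had 4.76, 3.87 and 3.43 RPKM in miR-CKO and 2.18, 1.82 and 2.00 RPKM in control. All 3 miR-CKO libraries were above all controls, as in 4.63% of the genes tested. The log2 difference was 0.74 ± 0.13 (SE), which did not pass the threshold (limma, Benjamini-Hochberg adjusted p = 0.174), and its 3′ UTR held 3 cluster matches, 2 of them 8mers, though none was a miR-96 8mer. Rbfox1, which binds UGCAUG elements beside alternative exons, had 8.41, 6.95 and 7.44 RPKM in miR-CKO and 3.87, 3.31 and 6.47 RPKM in control. The groups did not overlap either, with control library 3 near the miR-CKO range, and the log2 difference of 0.67 did not pass (limma, Benjamini-Hochberg adjusted p = 0.714). Its paralog Rbfox2 had 72.3, 67.2 and 66.8 RPKM in miR-CKO and 77.7, 73.7 and 76.5 RPKM in control, a log2 difference of -0.14 with all miR-CKO libraries below all controls, as in 6.24% of the genes tested, that did not pass (limma, Benjamini-Hochberg adjusted p = 0.968). Celf5 had 11.8, 8.01 and 9.41 RPKM in miR-CKO and 7.58, 5.20 and 9.25 RPKM in control, with overlapping groups and a log2 difference of 0.38.

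The nearest relatives of NOVA in domain layout, the poly(C)-binding proteins with 3 KH domains, were abundant and differed little. Hnrnpk, which encodes a splicing and transcription factor of wide expression, averaged 313 RPKM in miR-CKO and 306 RPKM in control. Pcbp2, Pcbp1 and Pcbp4 averaged 133, 128 and 123 RPKM in miR-CKO and 130, 127 and 129 RPKM in control. Pcbp3 averaged 59.5 RPKM in miR-CKO and 63.7 RPKM in control. Their log2 differences ran from -0.11 to 0.03 with a median of 0.01, and their groups overlapped in all 5. None passed the threshold in limma with Benjamini-Hochberg adjustment, and 0 had an unadjusted p under 0.05. Their 3′ UTRs held 0 cluster matches each. Even at its miR-CKO level, Nova2 was lower than any of them.

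Ordered by RPKM among these 31 genes (the 24 regulators, the 5 relatives and both members), Nova2 ranked 19, 21 and 19 in miR-CKO libraries 1 to 3 and 26, 26 and 28 in control libraries 1 to 3. In miR-CKO it stood between Elavl1 at 20.9 RPKM and Rbfox3 at 17.5 RPKM, both of which lie within its spread over the libraries. In control it stood between Mbnl1 at 6.86 RPKM and Celf4 at 4.78 RPKM, and Celf4 lies within its spread. Nova1 ranked 29 or 30 in all 6 libraries, above Mbnl3 and beside Celf6. Among all 24264 genes, Nova2 stood at percentiles 86.1, 79.6 and 82.4 in miR-CKO and 60.4, 60.4 and 59.3 in control. Nova1 stood at percentiles 56.0, 53.1 and 61.5 in miR-CKO and 51.3, 51.9 and 59.0 in control.

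**Figure D4:**
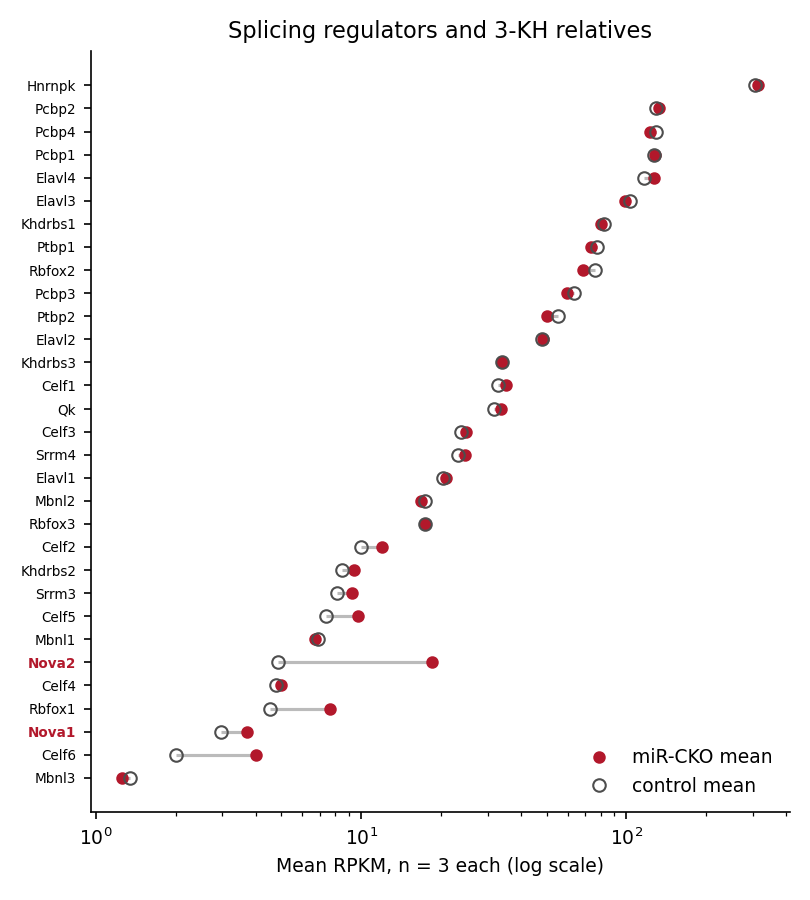
Mean level in RPKM on a log scale of 31 splicing regulators and relatives in miR-CKO (filled circles) and control (open circles), n = 3 each, ordered from the highest control mean at the top. Nova2 spans 18.6 RPKM in miR-CKO and 4.86 RPKM in control and has the longest line, while Hnrnpk and the Pcbp genes at the top differ little.

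Genes with the same sequence feature as Nova2 lay, as a class, above the other genes, and Nova2 lay above all of them. Among genes tested with an annotated 3′ UTR, members left out, the median log2 difference was -0.03 over 11679 genes with 0 miR-96 8mers, 0.07 over 333 genes with 1, and 0.24 over 22 genes with 2. Of the 333, 231 were above 0, and of the 22, 20 were above 0, where 40.4% of all genes were. With at least 2 copies, 14 of 24 genes had all miR-CKO libraries above all controls and 1 had them below, where 4.63% and 6.24% of all genes did. Matches, UTR length and tissue expression differ together between such genes, and their parts in these medians were not tested.

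Arf2, which encodes a small GTPase of vesicle traffic and holds 2 miR-96 8mers, rose to 37.3 ± 2.13 RPKM in miR-CKO, against 23.6 ± 0.0798 RPKM in control (SD, n = 3 each; log2 difference 0.64; limma, Benjamini-Hochberg adjusted p = 0.043). It was the 1 gene of the 24 called, where 0.0534% of all genes were called higher. The count was 0 when any 1 library was left out, and Arf2 was named after its value was seen. Sh3pxd2b, a scaffold protein of podosomes with 4 miR-96 8mers and 5 cluster matches in all, as in Nova2, had 41.9, 37.3 and 32.9 RPKM in miR-CKO and 25.6, 26.0 and 27.9 RPKM in control. Its groups did not overlap, but the log2 difference of 0.48 did not pass (limma, Benjamini-Hochberg adjusted p = 0.250). Lrch2, a leucine-rich repeat protein gene with 3 copies, had 13.3, 12.6 and 15.7 RPKM in miR-CKO and 10.2, 11.3 and 11.0 RPKM in control, with no overlap and a log2 difference of 0.32 (limma, Benjamini-Hochberg adjusted p = 0.679). The 24 genes ran from -0.14 to 0.82, and 0 reached the 1.72 of Nova2.

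Genes were also grouped by matches of any kind. The 56 genes other than Nova2 with at least 5 matches had a median log2 difference of 0.03, beside -0.02 over all genes, with 30 above 0, where 40.4% of all genes were. In limma, 0 of the 56 were called, and at an unadjusted p under 0.05, 11 were higher and 0 lower, where 2.85% and 2.31% of all genes were. Without overlap, 13 were higher and 2 lower, where 4.63% and 6.24% of all genes were. The 606 genes that hold 2 matches and no 8mer, as Nova1 does, had a median of 0.01, with 333 above 0, and 51 of them were higher and 23 lower without overlap. The 0.26 of Nova1 was above that median.

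**Figure D5:**
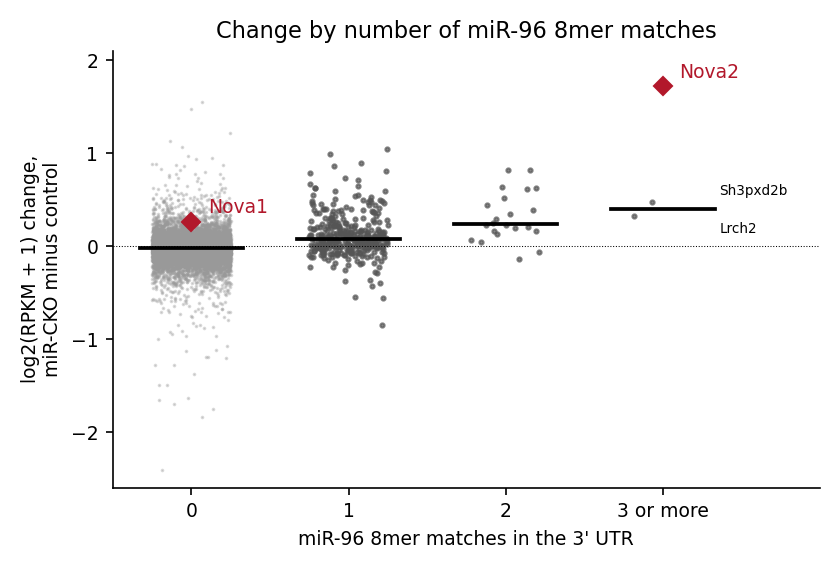
Difference in log2(RPKM + 1), miR-CKO minus control, of each gene tested with a 3′ UTR, by its number of miR-96 8mers, with the median of each class without the members as a bar and Nova2 and Nova1 as diamonds. The medians are -0.03, 0.07 and 0.24 for 0, 1 and 2 copies, Sh3pxd2b and Lrch2 are the 2 points at 3 or more, and Nova2 lies above them at 1.72.

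Messages whose splicing is known to depend on NOVA in mouse brain were followed at the level of the gene. The table holds 1 value per gene, so exon inclusion was not measured. Of 12 such genes, 11 were tested and Kcnj6 was below the filter. In limma with Benjamini-Hochberg adjustment 0 were called, where 0.061% of all genes were, and 0 had an unadjusted p under 0.05, where 2.85% were higher and 2.31% lower. The median log2 difference was 0.14, beside -0.02 over all genes tested, with 8 above 0, where 40.4% of all genes were, and 3 below. With 11 genes such counts say little about the list. Gphn, the scaffold of inhibitory synapses, had 15.2, 15.4 and 15.4 RPKM in miR-CKO and 13.7, 14.1 and 13.6 RPKM in control, a log2 difference of 0.14 and the 1 gene of the list without overlap, where 4.63% of all genes were higher in that way (limma, Benjamini-Hochberg adjusted p = 0.974). Dab1, the adaptor of reelin signalling, had 2.49, 4.06 and 5.19 RPKM in miR-CKO and 2.05, 3.29 and 2.25 RPKM in control, and its groups overlapped. Dcc, the netrin receptor, had 5.16, 5.28 and 21.6 RPKM in miR-CKO and 4.70, 7.48 and 3.97 RPKM in control, with a log2 difference of 0.62. Its groups overlapped, and miR-CKO library 3, the one with the highest spinal cord markers, was the only one above the control range.

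The genes whose pattern over the 6 libraries was most like that of Nova2 were Vat1, Onecut3, Jazf1, B4galnt1 and Camk2n1. Likeness was the root mean square distance between log2(RPKM + 1) values, each gene centred on its own mean, and it was 0.19, 0.26, 0.33, 0.36 and 0.40 log2 units in that order, where the spread of Nova2 about its own mean was 0.87. Vat1, a vesicle membrane protein gene, had 66.2, 53.5 and 48.7 RPKM in miR-CKO and 18.3, 18.5 and 21.7 RPKM in control. Onecut3, a transcription factor of the ONECUT family, had 6.95, 7.61 and 5.88 RPKM in miR-CKO and 1.90, 1.97 and 1.20 RPKM in control. Vat1, Onecut3, Jazf1 and B4galnt1 held 2 or 3 cluster matches and Camk2n1 held 1. At least 2 were held by 11.8% of the tested genes with a 3′ UTR. The 5 genes were picked on their pattern over the same libraries, so these counts are a description. Nova2 was the highest in miR-CKO library 1, as were Vat1, Jazf1, B4galnt1 and Camk2n1, whereas Onecut3 was highest in library 2.

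Nova1 had other neighbours by the same measure: Cacna2d3, Dusp4, B3gat1, Hoxa5 and Mir3057, at distances of 0.13, 0.13, 0.16, 0.16 and 0.16 log2 units, where the spread of Nova1 about its mean was 0.42. Cacna2d3, a calcium channel subunit gene, had 2.62, 2.26 and 4.16 RPKM in miR-CKO and 1.66, 1.37 and 3.43 RPKM in control. Hoxa5, a homeobox gene of positional identity, had 12.1, 12.4 and 21.5 RPKM in miR-CKO and 8.55, 13.2 and 18.0 RPKM in control. In all 5, as in Nova1, library 3 was the highest of its group. Of these, Hoxa5 held 2 cluster matches and Cacna2d3, Dusp4 and B3gat1 held 0.

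Of the genes around Nova2 on chromosome 7, 1 passed the filter on low values. That gene, Ccdc61, 15473 bases upstream on the other strand, had 3.61, 3.72 and 3.25 RPKM in miR-CKO and 3.10, 3.83 and 3.73 RPKM in control, with overlapping groups. Pglyrp1, at most 0.449 RPKM in miR-CKO and 0.441 RPKM in control, and Nanos2, at most 0.181 RPKM in miR-CKO and 0.0626 RPKM in control, were below the filter. The noncoding gene Gm26821 (chr7:18962415-18965173, minus strand) overlaps the later part of the Nova2 3′ UTR, though not its end. It covers the miR-182 7mer-m8 and none of the miR-96 8mers, and it has no value in the table. The libraries keep strand, but nothing says whether the counting used it, so reads from Gm26821 and Nova2 cannot be told apart. Around Nova1 on chromosome 12, the overlapping genes Gm33869, Gm48543 and Gm48542 and the neighbours B230217J21Rik, Gm48536, Gm25051 and Gm36971 have no values in the table.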

How the data were processed

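RNA was extracted with Trizol and made into stranded polyadenylated-RNA libraries, and all 6 shared 1 run and lane, per the labels. The submitters' processing notes name Bowtie and the mm10 build, with no version. Sources used here do not name a counting tool or an annotation. The authors deposited 1 table of 24264 genes, with decimal commas and no named unit. It was read as RPKM, a length-normalised and depth-normalised score, because the deposited values are whole multiples of a step that falls with transcript length (Spearman rho -0.925 across 1734 single-transcript genes, which are not independent). RPKM and FPKM cannot be told apart. Within 0.01 read, 88.2% of 1000 drawn genes gave whole reads in all libraries. These steps gave the reads of the members and the depth estimates, medians whose quartiles were 21.3 and 24.0 M reads in control 1. With the median depth they implied lengths of 6731 bases for Nova1 and 8032 bases for Nova2. The comparison of level between the paralogs rests on those lengths.

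The members and lists were chosen with earlier results of these data known. Groups follow the titles. Values were taken as log2(RPKM + 1), genes with at least 1 RPKM in at least 3 libraries were kept, and the groups were compared over 13118 genes with limma 3.58.1 in R 4.3.3 (empirical Bayes with trend and robust settings, Benjamini-Hochberg, threshold 0.05). P-values measure the spread between these libraries, which are not said to be separate litters. The fit was tested on simulated data, with 200 of 13118 genes changed by 1 log2 unit. It called 82.0% of these, and 6.29% of its calls were false, which is above the threshold of 0.05. A test for counts was planned for a count table only and not used. Seed matches were counted in the main transcript of GENCODE M21. Of the names, 20883 were symbols there and 1737 matched through RefSeq synonyms, which gave 19450 genes with a 3′ UTR. Named genes are the members, the 4 smallest p of the regulator and NOVA-dependent lists, every KH relative, genes with at least 3 miR-96 8mers, the 5 most alike and the neighbours. Arf2 was added after its value was seen. 1 gene that this rule names is not reported here. Marker lists are given as sums. Python 3.11.15, NumPy 2.4.6, pandas 2.3.3, SciPy 1.17.1, Biopython 1.88 and matplotlib 3.10.9 were used. Other pseudocounts, scalings, filters, a replicate block and leaving out each library were tried.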

Additional observations from a re-analysis of the deposited data

How the results depend on the processing

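The directions of the Nova2, Nova1 and Nova2-over-Nova1 differences were the same under every alternative pseudocount, scaling, left-out library and block tried. Leaving out 1 library moved the log2 difference of Nova2 between 1.58 and 1.85, that of Nova1 between 0.0082 and 0.55, and that of the log2 ratio between 1.17 and 1.89. Over the other alternatives Nova2 ran from 1.65 to 1.89 and Nova1 from 0.19 to 0.34. The counts and shares over all genes include the members. Because the members were selected on this contrast, no call is given for either. The count of genes called is fragile. It was 8 as reported, 7 higher and 1 lower, but 0 after upper quartile scaling (700 at an unadjusted p under 0.05), 2 after median centring (688), 0 in limma without trend (705), and 0 to 2 when 1 library was left out. With no filter on low values 9 were called, 6 higher and 3 lower, of which 3 were among the 8. Relative to the pan-neuronal list 8 were called, 4 higher and 4 lower, of which 4 were among the 8, and 165 had an unadjusted p under 0.05, beside 677 as reported. The count of splicing regulators called by limma was 0 under every alternative. The count of genes with at least 2 miR-96 8mers called was 1, but 0 with no filter on low values, upper quartile scaling, median centring, scaling to the pan-neuronal list, limma without trend, and each left-out library (0 to 0). With the replicate number as a block, 0 genes were called (847 at an unadjusted p under 0.05), 0 of them with at least 2 miR-96 8mers, and the differences of Nova2 and Nova1 stayed at 1.72 and 0.26. Deviations from the group means correlated at 0.36, 0.33 and -0.22 between same-numbered libraries. Between libraries of unlike number they correlated at -0.70 to 0.52, so the numbers were not taken to pair the libraries. The 2 matches of Nova1 became 0 in either short transcript. The causes were not tested. Nova1, the lower of the paralogs, had at least 287 reads in each library.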
